A study of Mus musculus with 10 samples.

Results

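Keratins and genes of epithelial identity were followed in RNA sequencing data from mouse cells labelled as fibroblasts. The set held 10 genes chosen by name, of 22594 genes measured. Of these, 4 were keratins of simple epithelia (Krt7, Krt8, Krt18 and Krt19), 3 were genes of stratified epithelia (Krt5, Krt14 and Trp63) and 3 encode epithelial adhesion proteins (Cdh1, Epcam and Cldn4). The level of a gene was the sum of the TPM values (transcript abundance corrected for length and scaled to a common total) over all of its transcripts.

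The study measured post-mortem cells taken from ear or from lung at 0 h or 12 h. There were 3 libraries of each ear group and 2 of each lung group, 10 in all. No treatment or allele is named for any group, and strain, age and number of animals are not given in these labels, nor is it said whether replicates came from separate animals, so every p measures only the spread between these libraries. The fibroblast label was compared with matrix genes. Col1a1, which encodes a chain of type I collagen, was at 373 to 1242 TPM over the 10 libraries. The 10 fibroblast markers together summed to 3510 to 11842 TPM in ear and 1392 to 4751 TPM in lung. By limma at an adjusted p below 0.05, 3 of these 10 were lower in lung at 0 h and 5 at 12 h. At both times 0 were higher. Their median log2(TPM + 1) difference was -1.37 at 0 h and -2.08 at 12 h. Of all tested genes 5.17% and 9.12% were lower. Lung libraries also held 5145 to 15701 TPM of 8 macrophage markers and 9150 to 17854 TPM of 8 smooth muscle and myofibroblast markers. Between 12024 and 12337 genes reached 1 TPM, and sequencing depth is unknown.

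Keratins are the intermediate filament proteins of epithelial cells and assemble as obligate partners, a type II chain with a type I chain. Krt8 with Krt18, joined by Krt7 and Krt19, forms the filaments of single-layered epithelia such as those lining lung and gut, whereas Krt5 with Krt14 marks the basal layer of skin and other stratified epithelia, where the transcription factor p63, the product of Trp63, is required. Cdh1 (E-cadherin), Epcam and Cldn4 (a tight junction claudin) hold epithelial cells together. Fibroblasts characteristically use vimentin in place of keratins, although cultured and activated mesenchymal cells can express simple keratins at low level.

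The set was a small part of every transcriptome. The summed level of its 10 genes was 10.4 to 17.6 TPM in ear and 13.5 to 71.6 TPM in lung. Vim, the vimentin gene, was at 2109 to 2998 TPM in ear and 1239 to 2794 TPM in lung, which was 289 to 657 times the summed level of the 4 simple keratins in ear and 37.2 to 123 times in lung. In these bulk libraries, fewer cells of a type and less RNA per cell cannot be told apart.

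Krt8 and Krt18, partners in the filaments of simple epithelia, were higher in lung than in ear at both times. Krt8, the type II chain, was at 16.5 and 4.45 TPM in the lung 0 h libraries and at 2.20 and 8.90 TPM in the lung 12 h libraries. In ear it was at 1.29, 0.259 and 0.440 TPM at 0 h and at 0.197, 0.268 and 0.148 TPM at 12 h. All 4 lung libraries thus lay above all 6 ear libraries, by the least margin between lung 12 h number 1 and ear 0 h number 1. Krt8 was higher in lung by 2.60 on the log2(TPM + 1) scale at 0 h (SE 0.561, adjusted p = 0.0171, limma with Benjamini-Hochberg adjustment over 13188 genes) and by 2.23 at 12 h (SE 0.561, adjusted p = 0.0250).

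Krt18, the type I partner, was at 15.6 and 4.69 TPM in lung at 0 h and at 2.61 and 6.98 TPM in lung at 12 h. In ear it was at 0.475, 0.105 and 0.337 TPM at 0 h and at 0.261, 0.344 and 0.315 TPM at 12 h, so no ear library reached the lowest lung library. The difference was 2.91 at 0 h (SE 0.452, adjusted p = 0.00369, limma) and 2.04 at 12 h (SE 0.452, adjusted p = 0.0144). The ratio of Krt8 to Krt18 stayed between 0.842 and 1.27 in the 4 lung libraries, although the genes themselves ranged 7.50-fold and 5.96-fold among those libraries. In ear, where both were near 0, the ratio ranged from 0.470 to 2.71.

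Krt8 and Krt18 are neighbours on chromosome 15 (GRCm38, GENCODE vM21). Krt8 (ENSMUSG00000049382.10) lies on the minus strand at 101996698 to 102004482 and Krt18 (ENSMUSG00000023043.7) on the plus strand at 102028180 to 102032027, so that they point away from each other with 23698 bases between their start sites. The only other gene annotated between their outer ends was the noncoding gene Gm36026, which overlaps the start of Krt8 on the opposite strand. Whether the library protocol kept strand is not stated, and reads from that overlap cannot be assigned with certainty. Their start regions are shown because the genes moved together across the libraries. Both are RefSeq sequences of GRCm38.p6, 300 bases around the RefSeq start site, written 5' to 3' on the strand of the gene, with capitals for matches to TATAAA (the TATA box) and CACCTG (an E-box that Snail and Zeb repressors bind) on either strand. The RefSeq start lay 140 bases from the GENCODE gene start for Krt8 and 36 bases for Krt18.
Krt8, chr15:102004293-102004592, minus strand: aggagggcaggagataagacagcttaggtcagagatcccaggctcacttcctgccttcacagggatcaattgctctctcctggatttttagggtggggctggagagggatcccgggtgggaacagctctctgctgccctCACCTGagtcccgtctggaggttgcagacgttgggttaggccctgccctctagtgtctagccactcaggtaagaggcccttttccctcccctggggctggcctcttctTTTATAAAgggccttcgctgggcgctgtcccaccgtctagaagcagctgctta
Krt18, chr15:102027966-102028265, plus strand: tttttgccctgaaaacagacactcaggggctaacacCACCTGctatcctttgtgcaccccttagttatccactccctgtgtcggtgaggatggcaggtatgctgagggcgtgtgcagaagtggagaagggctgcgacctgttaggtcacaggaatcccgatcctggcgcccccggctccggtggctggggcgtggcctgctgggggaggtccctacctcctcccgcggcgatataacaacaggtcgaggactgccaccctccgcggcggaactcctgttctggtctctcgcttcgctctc
The TATAAA match of Krt8 is read on both strands, in overlapping letters. These begin at -3 and -1 from the RefSeq start used, on that start itself, so they do not place a TATA box. TATAAA was found in 13.6% of the 32851 start regions of this table and CACCTG in 20.2%, either strand counted. Of the 7 genes of the set with a start region in the table, 6 held at least 1 CACCTG match. These were Krt7, Krt8, Krt18, Krt5, Epcam and Cldn4, and Krt14 held none. The RefSeq start used lay 1518 bases from the GENCODE start for Krt14 and 1360 bases for Krt7. These matches describe letters only.

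Krt19, a type I keratin of simple epithelia and ducts, was at 9.51 and 5.35 TPM in lung at 0 h and at 3.29 and 5.72 TPM at 12 h. The ear values were 1.00, 1.70 and 2.17 TPM at 0 h and 0.521, 1.64 and 2.05 TPM at 12 h. Lung and ear did not overlap, but ear libraries held more Krt19 than Krt8 or Krt18 in 5 of 6 cases. Krt19 was higher in lung by 1.66 at 0 h (SE 0.375, adjusted p = 0.0208, limma), while the 12 h difference of 1.22 missed the threshold (adjusted p = 0.0539) and passed it with quantile normalization (1.31, adjusted p = 0.0479).

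Krt7, a type II keratin of simple and ductal epithelia, did not follow that division. It was at 10.7 and 3.12 TPM in lung at 0 h and at 1.06, 2.64 and 1.94 TPM in ear at 0 h, without overlap but with a limma adjusted p of 0.126 (log2 difference 1.30, SE 0.481). At 12 h it was at 1.98 and 5.18 TPM in lung and at 6.31, 3.82 and 3.81 TPM in ear, so the tissues overlapped (difference -0.37, adjusted p = 0.646). Krt7 made up 17.7% to 20.4% of the summed simple keratin level in lung and 27.8% to 86.6% in ear. In ear 12 h number 1 the type II chains Krt7 and Krt8 together were 8.32 times the type I chains Krt18 and Krt19, against 0.708 to 1.11 times in the lung libraries. In the other ear libraries they were 0.952 to 2.06 times, and ear 0 h number 3 (0.952) lay within the lung range.

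**Figure D1:**
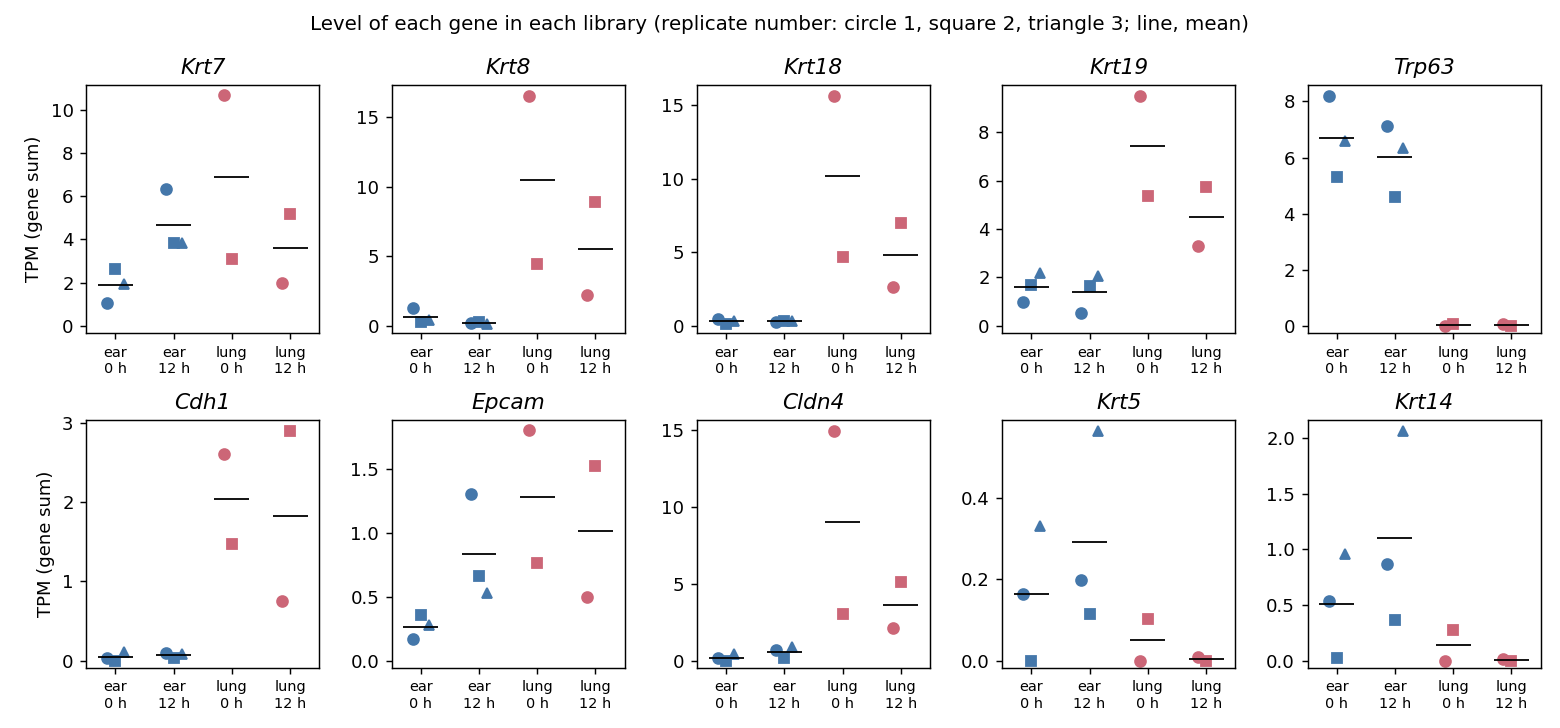
TPM of each of the 10 genes (vertical axes, linear, a scale of its own for each gene) in every library of the 4 groups, with the replicate number as the symbol and a line at the group mean. Krt8, Krt18, Krt19, Cdh1 and Cldn4 lie higher in all 4 lung libraries than in any ear library, Trp63 lies lower in all of them, and Krt5 and Krt14 stay at or below 2.06 TPM everywhere.

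Cldn4 and Cdh1, both encoding junction proteins, divided the tissues in the same direction as Krt8 and Krt18. Cldn4 was at 14.9 and 3.06 TPM in lung at 0 h and at 2.11 and 5.08 TPM at 12 h. The ear values were 0.154, 0 and 0.426 TPM at 0 h and 0.679, 0.162 and 0.878 TPM at 12 h. No ear library reached a lung library. Cldn4 was higher in lung by 2.77 at 0 h (SE 0.532, adjusted p = 0.0103, limma) and the 12 h difference of 1.50 missed the threshold (adjusted p = 0.0864). Cldn4 (ENSMUSG00000047501.3) lies on chromosome 5 at 134945119 to 134946934, far from the keratin clusters, and its start region is shown for comparison with those of Krt8 and Krt18, with capitals also for TGANTCA, the AP-1 site.
Cldn4, chr5:134946885-134947184, minus strand: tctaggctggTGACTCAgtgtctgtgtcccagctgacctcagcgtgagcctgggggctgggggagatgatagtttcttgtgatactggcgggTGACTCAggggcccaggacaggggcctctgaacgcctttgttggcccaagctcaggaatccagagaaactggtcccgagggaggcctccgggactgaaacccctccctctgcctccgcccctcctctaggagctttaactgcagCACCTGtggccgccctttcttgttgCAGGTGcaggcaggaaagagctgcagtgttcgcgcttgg
It held 2 matches to TGANTCA, a motif present in 7.81% of the start regions of the table and in none of the other 6 of the set, and 2 to CACCTG. The motifs did not overlap each other.

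Cdh1, which encodes the adherens junction protein E-cadherin, was at 2.61 and 1.48 TPM in lung at 0 h and at 0.752 and 2.90 TPM at 12 h. It was at or below 0.107 TPM in all 6 ear libraries and listed at 0 in ear 0 h number 2. Cdh1 was higher in lung by 1.52 at 0 h (SE 0.328, adjusted p = 0.0175, limma) and by 1.29 at 12 h (SE 0.328, adjusted p = 0.0261). Its 2 listed transcripts had identical TPM in every library, a division that leaves the gene sum unaffected.

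Epcam, which encodes an adhesion and signalling protein of simple epithelia, was at 1.81 and 0.764 TPM in lung at 0 h and at 0.502 and 1.52 TPM at 12 h. In ear it was at 0.167, 0.356 and 0.277 TPM at 0 h and at 1.31, 0.661 and 0.527 TPM at 12 h, so the tissues overlapped at 12 h. Neither tissue difference passed the threshold (0.82, adjusted p = 0.142 at 0 h; 0.11, adjusted p = 0.842 at 12 h; limma).

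Trp63 showed the opposite division, and the basal keratins Krt5 and Krt14 were low and variable beside it. Trp63 was at 8.18, 5.29 and 6.59 TPM in ear at 0 h and at 7.14, 4.61 and 6.35 TPM in ear at 12 h. In lung it was at 0 and 0.0635 TPM at 0 h and at 0.0523 and 0 TPM at 12 h. The tissues lay far apart at both times. Trp63 was lower in lung by -2.88 at 0 h (SE 0.236, adjusted p = 1.12e-04, limma) and by -2.76 at 12 h (SE 0.236, adjusted p = 1.05e-04).

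Krt5, the type II keratin of basal keratinocytes, was at 0.163, 0 and 0.331 TPM in ear at 0 h, at 0.198, 0.116 and 0.565 TPM in ear at 12 h, and at most 0.102 TPM in lung. Krt14, its type I partner, was at 0.533, 0.0271 and 0.962 TPM in ear at 0 h, at 0.871, 0.366 and 2.06 TPM in ear at 12 h, and at most 0.272 TPM in lung. Neither passed the filter of 1 TPM in at least 2 libraries, so neither was tested with the other genes. With no filter the largest tissue difference of Krt14 was -0.98 at 12 h (adjusted p = 0.128, limma over 18812 genes) and that of Krt5 -0.35 at 12 h (adjusted p = 0.208). Trp63 exceeded Krt14 in every ear library. Krt14 has close paralogs, among them Krt16 and Krt17, and how reads were divided between them is uncertain.

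Trp63 has alternative starts that give proteins with and without the amino-terminal transactivation domain, called TAp63 and ΔNp63, and ΔNp63 is the form of basal epithelial cells. The annotation held 4 transcripts that begin at 25683763 or 25683765 on chromosome 16 and 4 that begin 118153 bases downstream, at 25801916, the start of the ΔN form. In the ear libraries 74.8% to 92.8% of Trp63 TPM (median 83.5%) lay on transcripts with the downstream start. By library these transcripts were at 6.51, 3.96 and 6.03 TPM at 0 h and 6.62, 3.80 and 5.38 TPM at 12 h, and those with the upstream start were at 1.67, 1.33 and 0.566 TPM at 0 h and 0.516, 0.810 and 0.974 TPM at 12 h. The downstream start thus led in all 6 ear libraries, and at no time did the ranges of the starts overlap. The transcripts of a class share most of their sequence, so the division among them is an estimate and less certain than the gene sum.

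**Figure D2:**
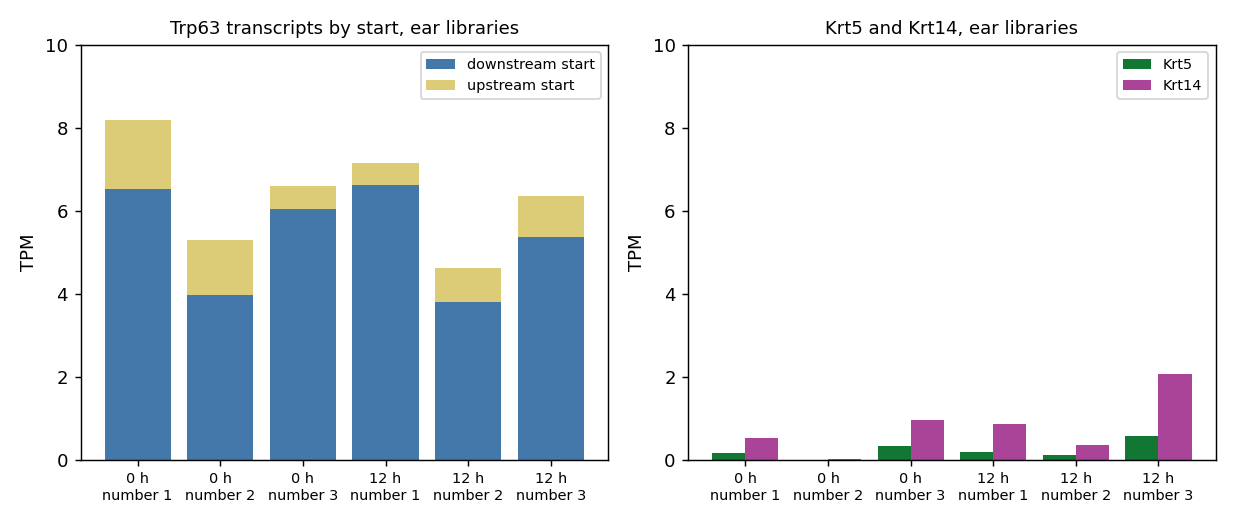
TPM in the 6 ear libraries of Trp63 transcripts stacked by start site (left) and of Krt5 and Krt14 (right), on the same vertical scale. The downstream start holds 3.80 to 6.62 TPM in each library, while Krt5 stays at or below 0.565 TPM and Krt14 at or below 2.06 TPM.

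Simple and stratified genes were compared within each library as the mean log2(TPM + 1) of the 4 simple keratins minus that of Krt5, Krt14 and Trp63. The difference was 3.78 and 2.22 in lung at 0 h and 1.77 and 2.92 in lung at 12 h. In ear it was -0.39, 0.05 and -0.40 at 0 h and -0.38, 0.08 and -0.60 at 12 h. Simple keratins therefore exceeded stratified genes in 4 of 4 lung libraries, and in ear the classes lay close together, with number 2 slightly above 0 at both times. Group means were 3.00 ± 1.10 (SD, n = 2) and 2.34 ± 0.82 (n = 2) in lung at 0 h and 12 h, and -0.25 ± 0.26 and -0.30 ± 0.34 (n = 3 each) in ear. No p is given because the genes were chosen with results known. In ear the stratified mean was carried by Trp63: the sum of Krt5 and Krt14 was 0.0271 to 2.63 TPM, against 3.83 to 7.29 TPM for the 4 simple keratins. By median over the libraries of a tissue the order in lung was Krt8, Krt18, Krt19, Krt7, Cldn4, Cdh1 and Epcam (6.68, 5.84, 5.54, 4.15, 4.07, 2.05 and 1.14 TPM), and the ranges of each gene and the next in that order overlapped. In ear the order began with Trp63 at 6.47 TPM, Krt7 at 3.23 TPM, Krt19 at 1.67 TPM and Krt14 at 0.702 TPM, and here too neighbours overlapped.

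**Figure D3:**
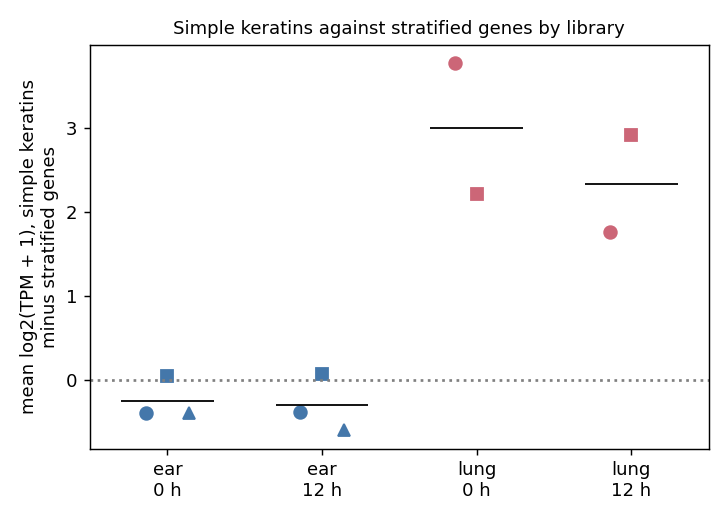
Mean log2(TPM + 1) of Krt7, Krt8, Krt18 and Krt19 minus that of Krt5, Krt14 and Trp63 (vertical axis) for each library of the 4 groups, with the replicate number as the symbol, a line at the group mean and a dotted line at 0. Lung libraries lie between 1.77 and 3.78 and ear libraries between -0.60 and 0.08.

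Across the set, 8 of 10 genes passed the filter and were tested. Krt8, Krt18, Cdh1 and Cldn4 passed it through their lung libraries alone (1 ear library reached 1 TPM, for Krt8) and Trp63 through ear libraries alone, so that their direction was partly built in, and their calls and the counts that follow are descriptions. At 0 h 5 of the 8 were higher in lung and 1 lower, where 6.11% of all tested genes were higher and 5.17% lower (11.3% in either direction). At 12 h 3 were higher (Krt8, Krt18 and Cdh1) and 1 lower (Trp63), where 8.07% of all tested genes were higher and 9.12% lower (17.2% in either direction). Taking both times, 5 of the 10 genes were higher in all 4 lung libraries than in any ear library, as were 10.7% of tested genes, and Trp63 was lower in all of them, as were 15.2%. At 0 h alone 7 of the 10 genes had both lung libraries above all ear libraries (18.0% of tested genes) and 1 had them below (25.6%). At 12 h 5 had them above (17.0%) and 3, Krt5, Krt14 and Trp63, below (30.2%). The calls leaned on single lung libraries. The lung 0 h libraries also differed in a Y-linked gene, Ddx3y, which was at 53.3 TPM in number 2 and at most 0.758 TPM in the other lung libraries, and its part in these values was not tested. Without lung 0 h number 1, the calls at 0 h of Krt8 (1.76), Krt19 (1.30), Cdh1 (1.24) and Cldn4 (1.78) were lost and 2 calls were left, Krt18 and Trp63. Without lung 12 h number 2, the calls at 12 h of Krt8 (1.41), Krt18 (1.47) and Cdh1 (0.71) were lost and Trp63 alone was left. Krt8 at 0 h also lost its call without ear 0 h number 2 (2.43) or number 3 (2.53), and Krt19 without ear 0 h number 1 (1.48). At 12 h Krt8 and Cdh1 lost theirs without any 1 of the 3 ear 12 h libraries, with differences of 2.19 to 2.26 and 1.26 to 1.31, and Krt8 also with no filter (adjusted p = 0.0516). Krt7 gained a call at 0 h without lung 0 h number 2 (2.06).

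**Figure D4:**
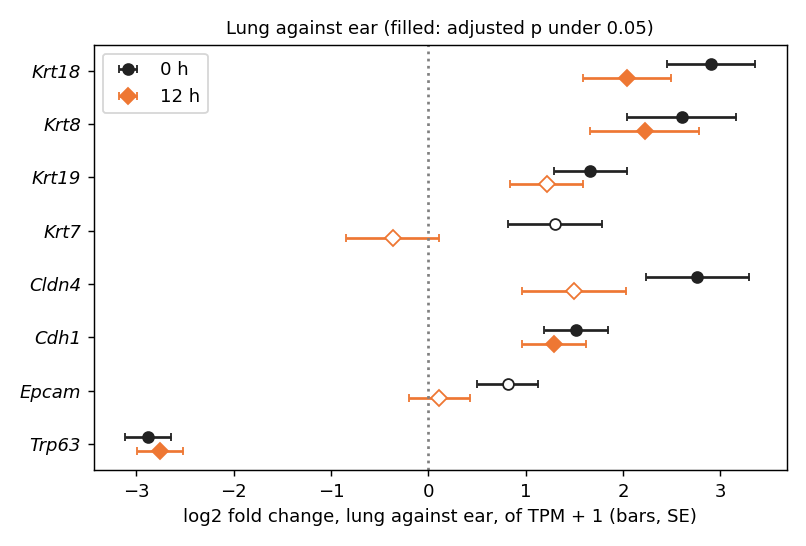
Log2 fold change of TPM + 1 in lung against ear (horizontal axis, bars for the SE) of the 8 tested genes at 0 h (circles) and 12 h (diamonds), filled where the adjusted p passed the threshold. Krt18, Krt8, Cdh1 and Trp63 are filled at both times, Krt19 and Cldn4 at 0 h alone, and Krt7 and Epcam at neither.

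The simple keratin and adhesion genes shared an order among the lung libraries. Krt7, Krt8, Krt18, Krt19, Epcam and Cldn4 were all highest in lung 0 h number 1, then in lung 12 h number 2, then in lung 0 h number 2, and lowest in lung 12 h number 1. Cdh1 differed only in that lung 12 h number 2 (2.90 TPM) exceeded lung 0 h number 1 (2.61 TPM). Thus 6 of these 7 genes had this order, which was noticed in the data, as had 559 of the 13188 tested genes (4.24%). From the highest to the lowest lung library the genes ranged 2.89-fold (Krt19) to 7.50-fold (Krt8). This order crossed the time points.

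Marker lists of other cell types did not share a single order over those libraries. The 11 alveolar and airway markers summed to 29.5, 31.0, 25.9 and 16.2 TPM in lung 0 h number 1, 12 h number 2, 0 h number 2 and 12 h number 1, with Hopx, which other cells also express, at 18.3, 18.4, 12.6 and 6.58 TPM of that. Sftpc, the surfactant gene that defines alveolar type II cells, was at 3.22, 4.72, 5.67 and 4.14 TPM in the same order of libraries. Ager, a gene of alveolar type I cells, had the order of the keratins, at 3.18, 2.84, 2.79 and 2.42 TPM. In ear Ager was at 0.859 to 1.36 TPM. Aqp5, another gene of type I cells, was at 1.16, 0.799, 1.13 and 1.02 TPM in the same libraries. It was at 1.22 to 2.66 TPM in ear and was lower in lung at 12 h (-0.84, adjusted p = 0.0458, limma). Sftpb (0.382, 0.341, 0.474 and 0.418 TPM) and Foxj1 (0.526, 0.277, 0.318 and 0.186 TPM) also departed from the keratin order. Scgb1a1, the secretory gene of airway club cells, was at 2.09, 2.73, 1.96 and 1.04 TPM and the surfactant gene Sftpd at 0.602, 0.755, 0.593 and 0.295 TPM, the order of Cdh1. Nkx2-1 and Lamp3 were below 0.1 TPM in every library. In ear the 11 markers summed to 7.55 to 18.8 TPM. Of these 11, 5 were tested. At 0 h 2 were higher in lung and 0 lower, beside 6.11% and 5.17% of all tested genes. These were Sftpc (2.29, adjusted p = 3.57e-04, limma) and Ager (0.95, adjusted p = 0.0157). At 12 h 3 were higher, Sftpc (2.37, adjusted p = 2.27e-04), Ager (0.82, adjusted p = 0.0227) and Scgb1a1 (1.24, adjusted p = 0.0368). Aqp5 alone was lower, beside 8.07% and 9.12%. Sftpc and Scgb1a1 passed the filter through lung alone. The 9 mesothelial markers summed to 8.08, 9.26, 5.12 and 14.9 TPM in these lung libraries, highest where the keratins were lowest. The members of that list differed. In the same libraries Msln was at 4.35, 2.47, 1.05 and 1.07 TPM, highest where the keratins were highest. Upk1b was at 1.63, 2.88, 0.685 and 4.52 TPM. In ear the list summed to 42.6 to 147 TPM, of which Msln held most, and Muc16 was below 0.1 TPM throughout. The fibroblast markers summed to 1392, 2016, 4751 and 2812 TPM, lowest where the keratins were highest. The macrophage markers summed to 6769, 15701, 5145 and 6996 TPM, and in ear to 21.3 to 41.7 TPM. The smooth muscle and myofibroblast markers summed to 10640, 9150, 10122 and 17854 TPM, and in ear to 221 to 2723 TPM. The part of these cell types in the keratin differences was not tested.

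**Figure D5:**
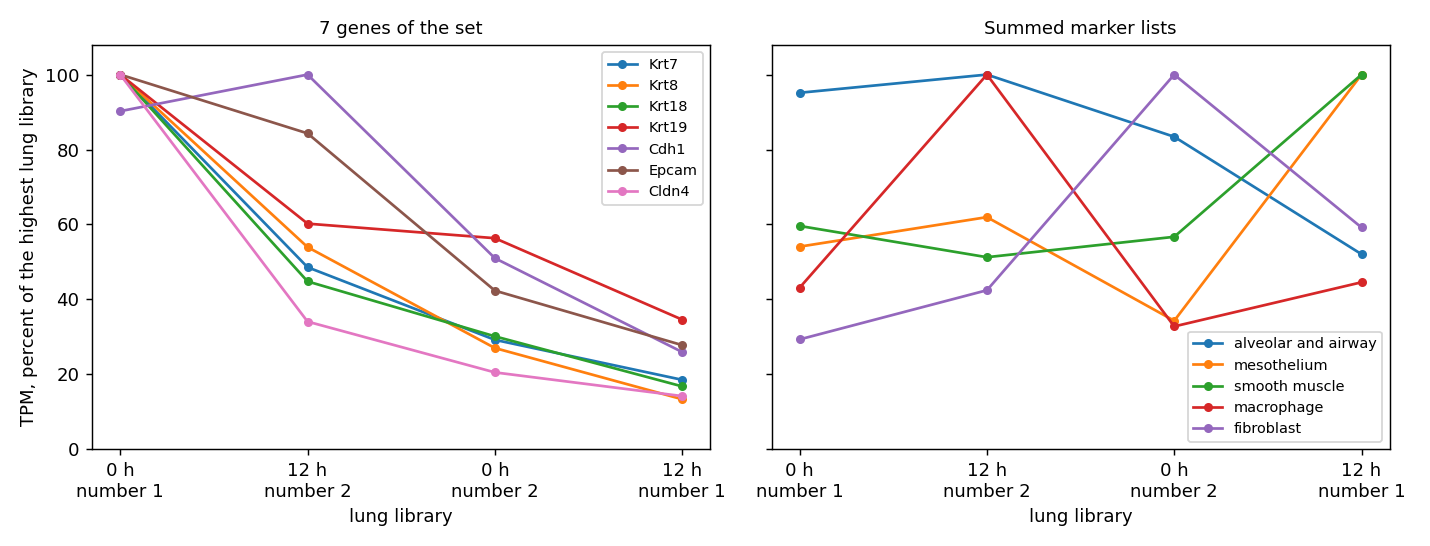
TPM in each of the 4 lung libraries as a percentage of the highest lung library (vertical axis), for 7 genes of the set (left) and for the summed markers of 5 cell types (right), with libraries placed in the order of Krt8. The keratins fall from left to right, by 7.50-fold for Krt8, while fibroblast markers are lowest at the left (1392 TPM) and smooth muscle markers highest at the right (17854 TPM).

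In ear the stratified keratins also differed by library number. Krt14, Krt5 and Krt6a, a keratin of hair follicle and wounded epidermis, were highest in number 3 and lowest in number 2 at both times, with Krt6a at 0.823 and 1.35 TPM in number 3 and at 0.00781 and 0.283 TPM in number 2 at 0 h and 12 h. Krt17, the type I keratin of hair follicle and basal appendage cells, had the same order. It was at 1.42 and 3.25 TPM in number 3 and 0.0513 and 0.442 TPM in number 2. This order was noticed in the data, and the share of all tested genes that have it was not computed. Most values of these keratins were below 1 TPM, so their shared order is a description. Other keratins did not keep that order at both times: at 12 h Krt16 was lowest in number 1 (0.0270 TPM, against 0.0857 TPM in number 2), as was Krt10 (3.14 and 3.32 TPM), and Krt15 and Krt1, both below 0.1 TPM, did not follow it. Trp63 was highest in number 1 at both times and, like those keratins, lowest in number 2 at both times. Of the 13 cornified envelope and suprabasal markers of keratinocytes, Krt1, Krt2, Lor and Tgm3 were below 0.1 TPM in every library. Krt10, the partner of Krt1, was at 3.14 to 6.40 TPM in ear and 2.12 to 3.78 TPM in lung. The 13 together summed to 10.5 to 29.7 TPM in ear and 9.53 to 15.9 TPM in lung, and their part in these values was not tested.

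Between 0 h and 12 h no gene of the set changed past the threshold in either tissue. In ear 0 of the 8 tested genes were called (background 0.0%; every adjusted p was 1, limma) and 1 had an unadjusted p below 0.05. That gene was Krt7, which was at 1.06, 2.64 and 1.94 TPM at 0 h and 6.31, 3.82 and 3.81 TPM at 12 h, without overlap (log2 difference 0.98, SE 0.430, unadjusted p = 0.0480). Over all genes 219 of 13188 had an unadjusted p below 0.05 in ear. Epcam likewise did not overlap between the times in ear, with its values given above and a difference of 0.51 (SE 0.280). The share of all tested genes without overlap between the times was not computed, so the lack of overlap is a description. In lung 0 of 8 were called (background 0.00758%) and 0 had an unadjusted p below 0.05, against 526 of 13188 genes. All 8 differences in lung were below 0, from -0.88 for Cldn4 and -0.86 for Krt18 to -0.01 for Trp63, and the libraries of the times overlapped for each of the 7 simple keratin and adhesion genes. The Cldn4 difference was 0.10 without lung 0 h number 1, that of Krt18 -0.09. The interaction, which tests whether the time difference was the same in the tissues, called 0 of 8 genes (background 0.0%), with 387 of 13188 genes at an unadjusted p below 0.05. Krt7 had its largest value, -1.67 (SE 0.680, unadjusted p = 0.0356, adjusted p = 1.00). These p values do not show that the times were alike: for Krt8 in lung the SE of the time difference was 0.614. The Y-linked gene Ddx3y was at 52.4 TPM in ear 0 h number 2 and 53.3 TPM in lung 0 h number 2. No 12 h library held more than 0.758 TPM of it, and its part in the time differences was not tested.

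The tested genes most like Krt8, Krt18, Krt7, Krt19, Krt14 and Trp63 over the 10 libraries were named by the Pearson correlation of log2(TPM + 1). The split between tissues dominates this correlation, and it is given as a description. The closest to Krt8 were Krt18 (0.984), Crb3 (0.976), Tm4sf19 (0.972), Lpcat4 (0.971) and Cdh1 (0.962). The closest to Krt18 were Chrna7 (0.984), Krt8 (0.984), Lpcat4 (0.977), Mmp9 (0.975) and Crb3 (0.975). Crb3, which encodes an apical polarity protein of epithelia, and Cdh1 are thus epithelial genes, while Mmp9 encodes a matrix metalloproteinase and Chrna7 a nicotinic receptor subunit. Krt7 was closest to Gm10518 (0.936), Epcam (0.929), Surf4 (0.927), Acot8 (0.916) and Sox11 (0.912). Krt19 was closest to Cck (0.957), Hmga2 (0.956), Lsm11 (0.955), Gcsh (0.953) and Chst7 (0.953). The closest to Trp63 were Ly6a (0.998), Mab21l2 (0.997), Ly6c1 (0.996), Angptl7 (0.995) and Scara3 (0.992). Krt14 was closest to Ppp1cc (0.938), Pdpn (0.936), Rbm48 (0.925) and the skeletal muscle genes Myog (0.919) and Mylpf (0.916).

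The wider keratin family was mostly silent. In these wider lists too the filter fixed some directions: Krt20, Cldn4, Cldn7, Cldn18, Crb3, St14 and Esrp2 passed it through lung alone, and Krt80, Cldn1, Cldn19, Ppl and Cdh13 through ear alone, so their calls are descriptions. The counts stand beside 6.11% of all tested genes higher and 5.17% lower at 0 h, and 8.07% and 9.12% at 12 h. Of 54 keratin genes measured, 11 were listed at 0 in every library, 44 stayed below 1 TPM in every library and 8 were tested. Of the 8, 4 were higher in lung at 0 h (Krt8, Krt18, Krt19 and Krt20) and 0 lower. Krt20, a keratin of gastrointestinal epithelium, urothelium and Merkel cells, was at 1.01 and 0.968 TPM in lung at 0 h and at 3.97 and 2.44 TPM at 12 h, and at most 0.0457 TPM in ear (0.97, adjusted p = 0.0186 at 0 h; 2.00, adjusted p = 3.47e-04 at 12 h; limma). It was highest in lung 12 h number 1, where Krt8 was lowest, and lowest in lung 0 h number 2. Krt80, a type II keratin of differentiating epithelia, was lower in lung at 12 h (-1.04, adjusted p = 0.0178). Of 23 claudin genes 8 were tested, of which 4 were higher in lung at 0 h (Cldn4, Cldn7, Cldn12 and Cldn18) and 2 lower (Cldn1 and Cldn19). Cldn18, a claudin of alveolar and gastric epithelium, was at 1.40 to 2.33 TPM in lung and at most 0.0278 TPM in ear (1.69, adjusted p = 5.81e-04 at 0 h, limma). Cldn19 was lower in lung by -2.24 (adjusted p = 0.0300) and Cldn12 higher by 1.27 (adjusted p = 0.00257).

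Other parts of the epithelial junction followed no single direction in lung against ear at 0 h. Of 16 desmosome genes 5 were tested, and 1 was higher and 2 lower in lung (median 0.05, against -0.08 over all tested genes). Pkp2, a desmosomal plaque gene, was at 9.39 to 17.6 TPM in lung and 0.368 to 1.31 TPM in ear (2.87, adjusted p = 5.76e-04, limma), whereas Perp, a p63 target of desmosomes, was at 3.74 to 13.8 TPM in lung and 22.3 to 89.5 TPM in ear (-3.29, adjusted p = 0.00445). Ppl, which encodes the plaque protein periplakin, was lower by -1.76 (adjusted p = 0.00218). The desmosomal cadherin genes Dsg1a, Dsg1b, Dsg3 and Dsc1 were below 0.1 TPM in every library. Of 9 hemidesmosome and epithelial laminin genes 7 were tested and 0 passed (median -0.07). Of 12 tight junction and polarity genes 8 were tested and 1, Crb3, was higher in lung (1.10, adjusted p = 0.0389; median 0.19). Of 7 Epcam partners and membrane proteases 5 were tested and 3 were higher: St14, the matriptase gene (1.93, adjusted p = 0.0233), its inhibitor gene Spint2 (1.45, adjusted p = 0.0477) and Cldn7 (1.10, adjusted p = 0.0359), with a median of 1.10. Of 11 cadherin and catenin genes 8 were tested and 1, Cdh13, was lower (-2.27, adjusted p = 0.00483; median 0.27). Cdh2 (N-cadherin) was at 13.8 to 35.3 TPM and Cdh11 at 100 to 167 TPM over the libraries, above Cdh1 in each. At 12 h the calls were 1 higher and 2 lower for desmosome genes, 0 for hemidesmosome, tight junction and Epcam partner genes, and 1 lower for cadherins.

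Most of the epithelial regulators stayed below 1 TPM, and those of the mesenchymal state were present throughout. Of 16 epithelial regulators 3 were tested, and Ovol1, Ovol2, Tfap2c, Foxa1 and Cdx2 were below 0.1 TPM in every library. Esrp2, which encodes an epithelial splicing factor, was higher in lung (1.15, adjusted p = 0.0181 at 0 h; 1.36, adjusted p = 0.00627 at 12 h; limma), and Klf5, which encodes a factor of basal and proliferating epithelial cells, was lower at 12 h (-1.29, adjusted p = 0.0471). Klf5 was at 5.07 to 9.29 TPM in ear, near the level of Trp63, and at 0.922 to 4.21 TPM in lung, where it had the library order of the keratins. Ehf reached 3.19 TPM in ear and did not pass at either time. Of 7 transcription factor genes that drive the epithelial to mesenchymal transition, all were tested, and 3 were lower in lung at 0 h and 1 higher (median -0.74). Twist1, Twist2 and Prrx1 were lower by -3.86, -2.39 and -1.06, and Zeb2, a repressor of Cdh1, was higher by 0.87 (adjusted p = 0.0430). Snai1, another repressor of Cdh1, was at 27.5 and 44.8 TPM in lung and 39.7, 47.4 and 45.9 TPM in ear at 0 h (-0.32, adjusted p = 0.438). At 12 h 4 of the 7 were lower and 0 higher, with Snai1 at -1.43 (adjusted p = 0.00271). Among 10 other intermediate filament genes 8 were tested and 2 were higher in lung at both times: Des, the desmin gene of muscle, which is also among the smooth muscle markers (4.73, adjusted p = 7.47e-04 at 0 h), and Nes, the nestin gene (3.25, adjusted p = 0.00113 at 0 h). Vim did not pass at either time.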

How the data were processed

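RNA was extracted with a Qiagen kit for DNA and RNA and libraries followed Illumina protocols, per the labels' protocols. The authors deposited TPM for each of 61440 transcripts and 10 libraries. The submitters' processing notes name kallisto 0.44.1 and GRCm38, and the transcript set, bias correction and trimming were not given in the sources used here. TPM keeps no depth, so no counting interval or floor was computed.

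Transcripts were matched to GENCODE vM21 by ID without version (60503 matched, 937 did not, holding 0.508% to 0.590% of TPM) and summed over 22594 genes. Genes with 1 TPM or more in at least 2 libraries (13188) were tested as log2(TPM + 1), a scale that understates changes of low genes, in 1 limma 3.58.1 fit (R 4.3.3) with 4 group means, eBayes with trend, 6 residual degrees of freedom, two-sided p and Benjamini-Hochberg adjustment over all genes at a threshold of 0.05. The fit was tested on simulated data. Changes were placed there only in genes with a higher mean level than any gene of the set, so it does not cover the set. Members, lists and tests were chosen with earlier results of these data known. The rule for named genes took all 10 members and, for Krt7, Krt8, Krt18, Krt19, Krt14 and Trp63, the 5 genes most like each. It also took up to 4 genes a list called in any pairwise contrast, by size at 0 h, and counts for the rest. Named outside it were Snai1, Vim, Col1a1, Ehf, Sftpb, Sftpd, Foxj1, Cdh2, Cdh11, Hopx, Krt1, Krt6a, Krt10, Krt15, Krt16 and Krt17. These were chosen after their values were seen.

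Ear libraries of equal number deviated together (correlations across genes 0.453, 0.320 and 0.377). Ear 0 h number 3 with 12 h number 2 gave 0.266, and the other unequal pairs were below 0. Deviations from a group mean sum to 0, so pairs above 0 force others below 0 by construction. The values below 0 are thus no separate sign of pairing. Ddx3y, a Y-linked gene, was at 52.4 TPM in ear 0 h number 2 and 0.0168 TPM in ear 12 h number 2. The numbers therefore do not establish pairs. The lung correlation was -0.443 for equal numbers and 0.443 for crossed numbers, which mirror each other by construction with 2 libraries a group. Alternatives changed the pseudocount, filter, scaling, samples in the fit, replicate block and libraries.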

Additional observations from a re-analysis of the deposited data

How the results depend on the processing

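The tissue calls of the set kept their direction under all alternatives tried. This says little, because the lung libraries of each called gene lay all above or all below ear at that time. Leaving out a library could then not reverse a difference. Krt8 and Cdh1 at 12 h each lost their call in 5 alternatives, and Krt8 at 0 h in 3. Trp63 at both times and Krt18 at 0 h kept theirs throughout. With the replicate number as a block within each time, which no label supports across tissues, 745 genes were called at 0 h between lung and ear and 1164 at 12 h, in place of 1488 and 2267, the set had 5 and 3 calls in place of 6 and 4, Cdh1 was not called at either time, and the Epcam difference at 12 h was -0.0090. Leaving out 1 library gave 547 to 1132 genes and 2 to 7 members called at 0 h, and 1356 to 2058 genes and 1 to 4 members at 12 h. It gave 0 to 121 genes for time in lung and 0 to 21 for the interaction, and 0 members for either. The lowest gene counts came without lung 0 h number 1 (547; 885 without number 2) and without lung 12 h number 2 (1356), and both highest counts for time in lung and the interaction came without lung 12 h number 1. The Krt7 difference at 12 h then ran from -0.90 to 0.16, that of Epcam from -0.26 to 0.48 and that of Cldn4 between the times in lung from -1.87 to 0.10. Simple minus stratified level, lung minus ear, was 3.25 at 0 h and 2.64 at 12 h, 5.54 and 5.68 with a pseudocount of 0.1, which by construction widens differences of genes near 0. It was 2.47 to 4.03 and 2.06 to 3.22 without 1 library.

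For time in lung the single gene called became 7 with no filter, and 0 with a pseudocount of 0.1, a filter of 5 TPM, only the groups compared or the replicate block. With lung numbers crossed in the block, an alternative chosen after seeing the data, it was 0. The interaction called 2 genes with no filter and 1 with quantile normalization or upper-quartile scaling, in place of 0. The block changed no other call in the time contrasts, with 0 genes and 0 members called in ear. The other alternatives were within 1.5 times the count reported. The causes were not tested. Where a lung group was left with 1 library, it was assumed to vary like the other groups. Unknown depth limits what the genes under 1 TPM, above all Krt5 and Krt14, can show.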

Other observations

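Genes of the cornified layer of skin differed between the tissues in both directions. Ivl, which encodes involucrin, a cornified envelope precursor, was at 3.17 and 2.48 TPM in lung at 0 h and at 10.6 and 6.49 TPM in lung at 12 h, against at most 0.725 TPM in ear. It was higher in lung by 1.67 at 0 h (SE 0.282, adjusted p = 0.00541, limma) and by 2.88 at 12 h (adjusted p = 2.11e-04), and like Krt20 it was highest in lung 12 h number 1, where the simple keratins were lowest. Tgm1, which encodes the transglutaminase that crosslinks that envelope, ran the other way, at 10.5, 1.79 and 4.43 TPM in ear at 0 h and 14.8, 2.83 and 14.3 TPM in ear at 12 h, against at most 1.04 TPM in lung (-2.79 at 12 h, adjusted p = 0.0227). It was lowest in ear number 2 at both times, as were Krt5, Krt14, Krt6a, Krt17 and Trp63. Cdsn, which encodes corneodesmosin, was also lower in lung (-1.20, adjusted p = 0.0275 at 0 h). Ivl passed the filter through lung alone and Tgm1 and Cdsn through ear alone, so their directions were partly built in.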
